A study of Mus musculus with 6 samples.

Results

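The genes described are 9 mouse genes measured in the RPE-choroid, the retinal pigment epithelium (RPE) with the vascular choroid beneath it. They are 7 glucocorticoid-pathway genes (Nr3c1, Fkbp5, Tsc22d3, Sgk1, Klf9, Zbtb16 and Hif3a) and 2 metallothioneins (Mt1 and Mt2). The members were chosen by symbol, and all 9 were found among the 15663 genes listed for every library. RNA-seq was performed on 3 control and 3 subretinal fibrosis (SRF) libraries, 1 per mouse. All mice were C57BL/6 in the labels. The study's methods give them as C57BL/6J males between 8 and 10 weeks old. Control mice were untreated. SRF mice had received the two-stage laser treatment, with 4 burns per eye and the lesions burnt again after 10 days. Their RNA was prepared 20 days after that second laser. The labels name no steroid or metal treatment in either group. The labels give the RPE-choroid, not the lesions, as the source of the RNA. In such bulk tissue fewer cells of a type and less RNA per cell cannot be told apart.

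Glucocorticoids cross the cell membrane and bind the glucocorticoid receptor, encoded by Nr3c1, which moves to the nucleus and acts on genes near its binding sites. Fkbp5 and Tsc22d3 are among its most widely shared targets, and Fkbp5 acts back on the receptor by lowering its affinity for hormone. Metallothioneins are small, cysteine-rich proteins that hold zinc and copper, and their genes respond to metals through the factor MTF-1 and also to glucocorticoids. In the eye, glucocorticoids are known as anti-inflammatory drugs and metallothioneins as part of the defence of the RPE against metals and oxidants.

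A promoter of Sgk1 is shown because it holds the full form of the receptor's binding element. That element is a palindrome, AGAACA and TGTTCT with any 3 bases between them. It was searched on both strands of RefSeq promoters (250 bases before to 50 after each start, build GRCm38.p6), in which 7 of the 9 members matched with 14 starts in all (Nr3c1 and Zbtb16 did not match). It was found at 1 start of Sgk1 (chr10:21993640-21993939, forward strand), beginning at position -189 from the start, and in 3 of 32851 promoters overall (0.00913%). The capitals mark it.
Sgk1: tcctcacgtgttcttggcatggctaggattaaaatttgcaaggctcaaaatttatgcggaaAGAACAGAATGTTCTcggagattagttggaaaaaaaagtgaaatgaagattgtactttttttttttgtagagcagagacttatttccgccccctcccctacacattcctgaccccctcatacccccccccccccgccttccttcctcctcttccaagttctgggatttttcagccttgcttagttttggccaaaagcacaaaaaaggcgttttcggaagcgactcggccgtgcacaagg
Sgk1 has 6 such starts in the table, and gene counts do not show which of them was used. The hexamer AGAACA alone, which lies inside the palindrome, was present in 19.0% of all promoters.

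The promoters of Mt1 and Mt2 are shown for their metal response elements. The core of the metal response element, spelled TGCACNC or TGCGCNC, was found 3 times in the promoter of Mt1 (chr8:94178839-94179138) and 4 times in that of Mt2 (chr8:94172368-94172667), both on the forward strand. In Mt1 the matches began at positions -23, 3 and 21 from the RefSeq start, and in Mt2 at -223, -128, -50 and 5. These positions depend on the annotated start, since in GENCODE M21 the Mt1 gene begins at 94179082 and the Mt2 gene at 94172664. Matches outside the stretches shown were not searched for, so the counts hold for these stretches only. At least 1 match was present in 25.7% of all promoters and at least 4 in 0.517%. The capitals mark the matches on either strand.
Mt1: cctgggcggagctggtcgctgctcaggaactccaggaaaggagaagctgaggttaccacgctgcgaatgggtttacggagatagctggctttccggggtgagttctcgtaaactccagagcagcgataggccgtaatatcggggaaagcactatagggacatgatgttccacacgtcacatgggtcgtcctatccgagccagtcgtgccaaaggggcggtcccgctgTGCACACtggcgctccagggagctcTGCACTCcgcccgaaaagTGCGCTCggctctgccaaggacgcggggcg
Mt2: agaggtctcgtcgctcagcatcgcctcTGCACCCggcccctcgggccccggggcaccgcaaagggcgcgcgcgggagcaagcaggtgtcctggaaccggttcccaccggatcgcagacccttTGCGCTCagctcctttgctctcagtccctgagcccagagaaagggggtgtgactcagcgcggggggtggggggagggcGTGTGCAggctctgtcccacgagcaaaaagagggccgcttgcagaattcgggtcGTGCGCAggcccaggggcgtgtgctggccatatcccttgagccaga

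Mt1 and Mt2 are close relatives that lie 5513 bases apart on chromosome 8, and their coding sequences are shown because reads from near-identical copies can be assigned to the wrong gene. The coding sequences (GENCODE M21, GRCm38, 94179311 to 94180193 for Mt1 and 94172848 to 94173427 for Mt2) are both 186 bases long and identical at 148 positions (79.6%). The capitals mark the 38 positions that differ.
Mt1: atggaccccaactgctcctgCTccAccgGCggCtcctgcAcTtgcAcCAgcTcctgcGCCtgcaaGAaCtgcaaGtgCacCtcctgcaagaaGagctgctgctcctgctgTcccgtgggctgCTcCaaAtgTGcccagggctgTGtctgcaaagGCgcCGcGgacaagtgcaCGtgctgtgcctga
Mt2: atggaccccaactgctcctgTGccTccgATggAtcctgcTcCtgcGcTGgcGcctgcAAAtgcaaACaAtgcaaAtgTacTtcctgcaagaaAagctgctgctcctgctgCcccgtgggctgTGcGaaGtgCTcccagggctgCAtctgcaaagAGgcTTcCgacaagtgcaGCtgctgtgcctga
The longest stretch that both transcripts share without a mismatch was 20 bases.

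Total counts were between 13667310 and 24356023 per library, and 3 counts corresponded to between 0.123 and 0.22 CPM (counts scaled to the size of the library). Libraries were compared as CPM after TMM normalization. The 14 RPE markers were detected in each library, at a mean of 9.99 to 10.10 log2 CPM in control and 9.68 to 9.90 in SRF mice (summed 50758 to 58431 against 36457 to 45425 CPM). Of these markers 9 were lower and 5 higher in SRF, 6 of them lower at an unadjusted p-value under 0.05 in edgeR and 3 called lower by DESeq2. Control mouse 1 and SRF mouse 3 carried far more retinal RNA than the others, with a mean of 8.10 and 8.12 log2 CPM over 18 photoreceptor markers against 4.09 to 5.36 elsewhere. They are called the retina-rich libraries, and fold changes are also given without them where they moved by over 1.5 times or changed sign. The 13 macrophage markers had a mean of 5.4 to 5.71 log2 CPM in control and 6.10 to 6.50 in SRF mice.

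None of the tested members passed the test between SRF and control. With edgeR's quasi-likelihood test, 0 of 8 tested members passed an adjusted p-value under 0.05 with a log2 fold change of at least 0.5, as did 0% of all 13454 tested genes. Without adjustment 0 of 8 members had a p-value under 0.05 in edgeR's test, against 7.01% of all tested genes. DESeq2 called 1.14% of all genes and 0 of the 8 members, and its unadjusted p-value was under 0.05 for 1 of the 8 (Sgk1) against 7.23% of all genes. The fold changes ran from -0.38 to 0.17 on the log2 scale, with 3 members higher and 5 lower, and Hif3a did not reach the count criterion of more than 50 counts in at least 2 libraries. The 95% intervals lay within 1 log2 unit of 0 for 7 of the 8 tested members. The exception was Tsc22d3, whose interval reached down to -1.02. The intervals of Fkbp5, Tsc22d3, Zbtb16, Sgk1, Mt1 and Mt2 hold a change of 0.5 in at least 1 direction.

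**Figure D1:**
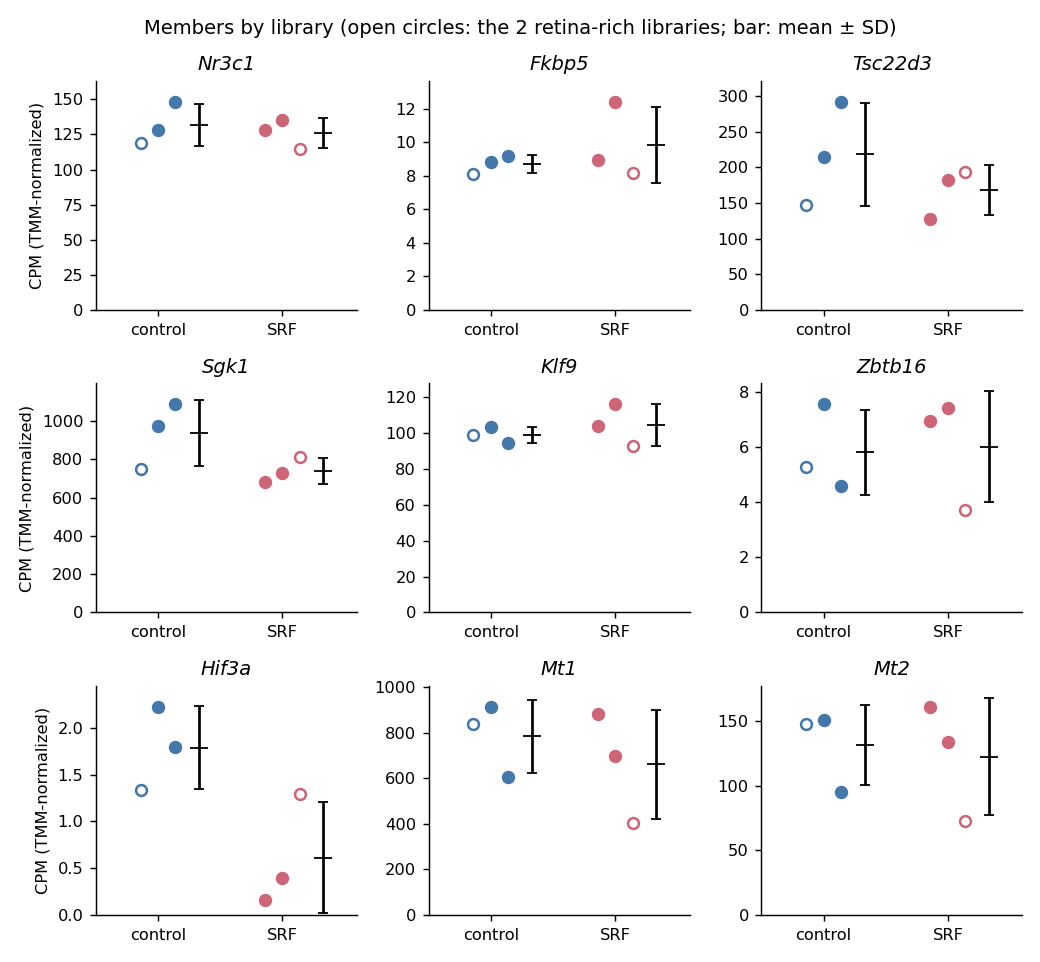
TMM-normalized CPM of each member in the 3 control and 3 SRF libraries, with the mean ± SD of each group at its right and the retina-rich libraries as open circles; every axis starts at 0. The groups overlapped for 8 of the 9 members, and Hif3a separated only by the small gap between the 2 open circles.

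Nr3c1 (ENSMUSG00000024431, chromosome 18, 39410545 to 39519421), the receptor itself, was the steadiest transcript of the set together with Klf9. Its level was 119, 128 and 148 CPM in control mice 1, 2 and 3 and 128, 136 and 114 CPM in SRF mice 1, 2 and 3. The groups covered nearly the same range, and the highest control library was 1.25 times the lowest. SRF over control gave a log2 fold change of -0.06 (standard error, SE, 0.13, 95% interval -0.37 to 0.24, unadjusted p = 0.640 from edgeR). With limma on FPKM the sign was the opposite (0.12).

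Fkbp5 (ENSMUSG00000024222, chromosome 17, 28399094 to 28517527), the co-chaperone that restrains the receptor, was expressed at a low level. Its level was 8.11, 8.84 and 9.18 CPM in control mice 1, 2 and 3 and 8.92, 12.4 and 8.18 CPM in SRF mice 1, 2 and 3. SRF mouse 2 stood above the rest, while the other 2 SRF mice lay within the range of the controls. The SRF over control difference was 0.17 on the log2 scale (SE 0.22, 95% interval -0.35 to 0.70) and became -0.03 when SRF mouse 2 was left out. The summed level of the 13 macrophage markers was 1395 to 1827 CPM in control and 3238 to 4681 CPM in SRF mice, highest in SRF mouse 2, and none was at 0. The mean of the 8 fibroblast markers was also highest in SRF mouse 2. It was 7.48, 7.84 and 8.27 log2 CPM in control and 7.98, 8.57 and 8.31 in SRF mice 1, 2 and 3. The summed fibroblast level was highest in SRF mouse 3 (11155 CPM). The part of either marker list in the Fkbp5 value was not tested.

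Tsc22d3 (ENSMUSG00000031431, chromosome X, 140539528 to 140600659) encodes GILZ, a leucine zipper protein that carries much of the anti-inflammatory action of glucocorticoids. It was at 147, 215 and 292 CPM in control mice 1, 2 and 3 and at 128, 182 and 194 CPM in SRF mice 1, 2 and 3. The controls alone spanned a 1.98-fold range that held 2 of the 3 SRF mice. On the log2 scale the difference of SRF from control was -0.38 (SE 0.27, 95% interval -1.02 to 0.26, adjusted p = 0.922 from edgeR with Benjamini-Hochberg adjustment). It was -0.11 without control mouse 3, the highest library, and -0.22 without SRF mouse 1, the lowest.

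Sgk1 (ENSMUSG00000019970, chromosome 10, 21882184 to 21999903), a kinase that controls sodium channels and transporters, had the smallest p-value of the tested members. Its level was 751, 977 and 1088 CPM in control mice 1, 2 and 3 and 680, 728 and 811 CPM in SRF mice 1, 2 and 3. Of the SRF mice only mouse 3 exceeded any control, namely control mouse 1, and these are the retina-rich libraries. This gave a log2 fold change of -0.34 (SE 0.16, 95% interval -0.73 to 0.04, adjusted p = 0.766 from edgeR with Benjamini-Hochberg adjustment). Its unadjusted p-value was 0.072 in edgeR and 0.049 in DESeq2, where the adjusted p-value was 0.676. Without control mouse 3 the log2 fold change was -0.22.

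Without the retina-rich libraries, Sgk1 and Tsc22d3 were both further below control. The log2 fold changes were then -0.56 for Sgk1 (SE 0.13, adjusted p = 0.0901 from edgeR with Benjamini-Hochberg adjustment) and -0.72 for Tsc22d3 (SE 0.20, adjusted p = 0.133 from the same test). Neither passed the threshold, although the same 4 libraries gave 153 called genes in all. The order of the 6 libraries was nearly the same for both genes. Control mice 3 and 2 were highest in both, and SRF mouse 1 was lowest in both. The RPE markers were lower in SRF as well. Of 7 tested lens markers 6 were lower and 1 higher in SRF (median log2 fold change -2.59). Their mean was highest in control mice 2 and 3 (3.63 and 2.53 log2 CPM), against 0.01 to 1.19 in the other libraries. The part of the RPE and lens markers in the values of Sgk1, Tsc22d3 and Hif3a was not tested.

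Klf9 (ENSMUSG00000033863, chromosome 19, 23141226 to 23168134) is a zinc finger repressor induced by glucocorticoids and thyroid hormone. Its level was 98.6, 104 and 94.6 CPM in control mice 1, 2 and 3 and 104, 116 and 92.6 CPM in SRF mice 1, 2 and 3. The group ranges overlapped, and the spread within groups was smaller than for most genes (percentile 15.7 of all tested genes). SRF differed from control by 0.08 on the log2 scale (SE 0.12, 95% interval -0.20 to 0.36), so a change of 0.5 in either direction lay outside the interval. Without SRF mouse 2 the value was -0.01, and without both retina-rich libraries 0.15.

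Zbtb16 (ENSMUSG00000066687, chromosome 9, 48654297 to 48836222) encodes PLZF, a transcriptional repressor strongly induced by steroids in several tissues. It was at 5.29, 7.54 and 4.59 CPM in control mice 1, 2 and 3 and at 6.92, 7.41 and 3.70 CPM in SRF mice 1, 2 and 3. Each group held libraries near both ends of the range, and SRF mouse 3 was lowest of all. On the log2 scale the difference of SRF from control was 0.05 (SE 0.35, 95% interval -0.78 to 0.88) and changed sign when control mouse 1, control mouse 3, SRF mouse 1 or SRF mouse 2 was left out (values between -0.13 and -0.01). Without both retina-rich libraries it was 0.24. The 10 skeletal muscle markers were highest in the same 3 libraries (control mouse 2, SRF mice 1 and 2) and lowest in SRF mouse 3 as well, with a mean of 7.13, 7.89 and 7.02 log2 CPM in control and 8.35, 8.12 and 6.48 in SRF mice 1, 2 and 3. Their summed level was 1846 to 3127 CPM in control and 1196 to 4239 CPM in SRF mice, and none was at 0. Their part in the Zbtb16 values was not tested.

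Hif3a (ENSMUSG00000004328, chromosome 7, 17031507 to 17062427), a glucocorticoid-induced member of the hypoxia-inducible factor family, was the member with the fewest reads. Control mice 1, 2 and 3 gave 18, 41 and 43 counts and SRF mice 1, 2 and 3 gave 3, 7 and 23 counts, which is 1.34, 2.22 and 1.79 CPM against 0.162, 0.390 and 1.29 CPM. Every SRF library was below every control library, but the lowest control (mouse 1) and the highest SRF library (mouse 3), both retina-rich, were almost level (p = 0.1 by a two-sided exact permutation test, which cannot go lower with 3 mice per group). It was the 1 member whose groups did not overlap. Over all tested genes the groups did not overlap for 6.43% with SRF lower and for 6.71% with SRF higher. When all 15663 listed genes were tested, a setting chosen after the data had been seen, the log2 fold change was -1.55 (SE 0.70, 95% interval -3.21 to 0.10, adjusted p = 0.791 from edgeR with Benjamini-Hochberg adjustment). It was -2.71 without SRF mouse 3 and -2.87 without both retina-rich libraries, with an adjusted p of 0.0755 from edgeR in the latter. Smaller values were -1.11 without SRF mouse 1, and -1.02 and -0.22 with limma on log2 FPKM at pseudocounts of 0.1 and 1. At these counts the size of the difference is poorly determined.

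**Figure D2:**
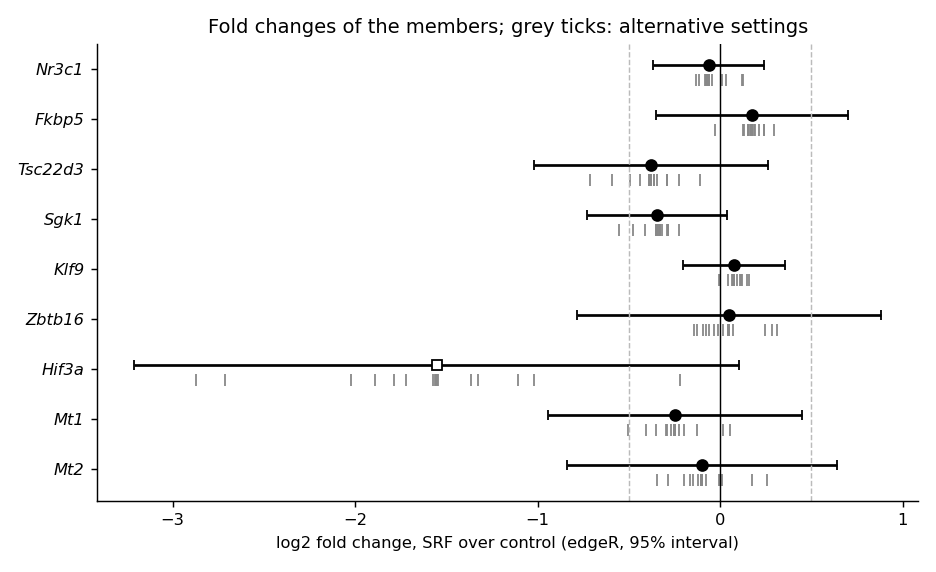
Log2 fold change of SRF over control for each member with its 95% interval (edgeR; open square: Hif3a, from the fit over all listed genes), dashed lines at the threshold of 0.5 either way, and grey ticks for the alternative settings and left-out libraries. All intervals include 0, and the ticks of Nr3c1, Fkbp5, Klf9, Zbtb16, Mt1 and Mt2 lie on both sides of 0.

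Mt1 (ENSMUSG00000031765, chromosome 8, 94179082 to 94180327) was the most abundant member by mean FPKM in control mice, where it ranked 34th of the 15663 listed genes. By mean CPM in control mice Sgk1 was higher, at 939 against 785 CPM. The level of Mt1 was 836, 914 and 605 CPM in control mice 1, 2 and 3 and 880, 699 and 405 CPM in SRF mice 1, 2 and 3. Control mouse 3 and SRF mouse 3 were low, and the remaining libraries of both groups lay between 699 and 914 CPM. This gave a log2 fold change of -0.25 (SE 0.29, 95% interval -0.94 to 0.45, adjusted p = 0.993 from edgeR with Benjamini-Hochberg adjustment), and 0.02 without SRF mouse 3. Without both retina-rich libraries it was 0.05.

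Mt2 (ENSMUSG00000031762, chromosome 8, 94172664 to 94173568) followed Mt1 from library to library. It was at 147, 151 and 95.4 CPM in control mice 1, 2 and 3 and at 161, 134 and 72.7 CPM in SRF mice 1, 2 and 3. The same libraries, control mouse 3 and SRF mouse 3, were low. Its fold change, as log2, came to -0.10 (SE 0.31, 95% interval -0.84 to 0.64), 0.01 without control mouse 2, 0.18 without SRF mouse 3 and 0.26 without both retina-rich libraries.

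Mt1 and Mt2 varied more within groups than most genes, at percentiles 84.6 and 86.3 of all tested genes for the SD of log2 CPM, but they varied together. The SD over the 6 libraries was 0.44 for log2 FPKM of Mt1 and 0.45 for Mt2, and 0.10 for the log2 ratio of the pair. The ratio of Mt1 to Mt2 in FPKM was 5.26, 5.61 and 5.88 in control mice 1, 2 and 3 and 5.06, 4.86 and 5.15 in SRF mice 1, 2 and 3. It was thus lower in every SRF mouse than in every control, 5.02 ± 0.148 against 5.59 ± 0.311 (SD, n = 3), with p = 0.1 by the same exact permutation test. The log2 difference was -0.15, it was also -0.15 with counts in place of FPKM, and it lay between -0.19 and -0.11 when single mice were left out.

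Genes with short transcripts were low in the same libraries as the metallothioneins. Over the 507 other tested genes whose longest annotated transcript is under 1000 bases, the median deviation from the mean of the 6 libraries was 0.03, 0.14 and -0.17 (log2) in control mice 1, 2 and 3 and 0.23, 0.07 and -0.34 in SRF mice 1, 2 and 3. The corresponding deviations of Mt1 were 0.26, 0.39 and -0.21 in control and 0.34, 0.00 and -0.78 in SRF mice. Control mouse 3 and SRF mouse 3 were thus lowest in both. An edgeR fit with this short-transcript level as a covariate was chosen with the data in view, so its SE and intervals may be too narrow. In it the SE of Mt1 was 0.07 in place of 0.29 and its log2 fold change was -0.27 (95% interval -0.44 to -0.10, adjusted p = 0.222 from edgeR with Benjamini-Hochberg adjustment). For Mt2 the same fit gave -0.12 (SE 0.09, 95% interval -0.33 to 0.09). Why short transcripts differ between the libraries was not tested.

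**Figure D3:**
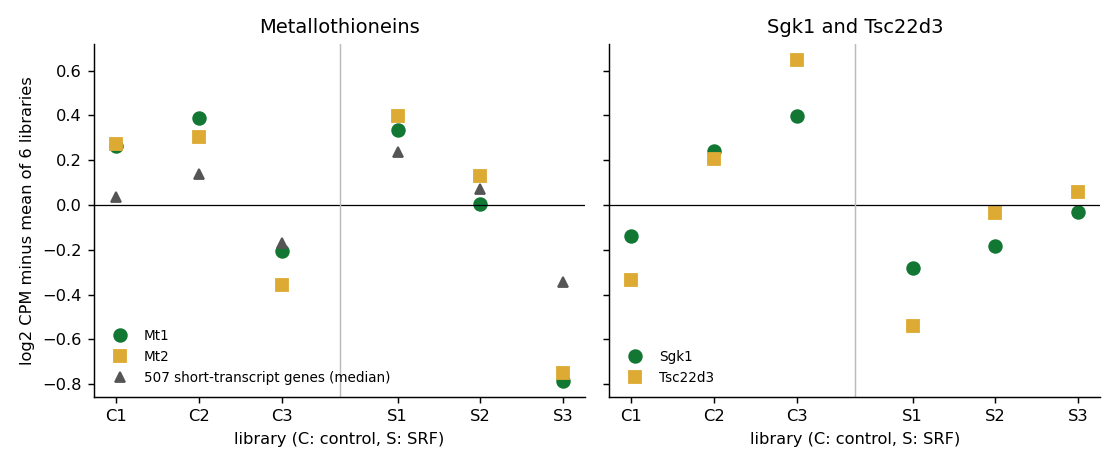
Log2 CPM minus the mean of the 6 libraries for Mt1 and Mt2 with the median of the short-transcript genes (left) and for Sgk1 and Tsc22d3 (right), by library (C1 to C3: control, S1 to S3: SRF). Mt1, Mt2 and the short-transcript genes are all lowest in C3 and S3, whereas Sgk1 and Tsc22d3 are highest in C3.

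Per transcript length, in the FPKM values of the authors, the members spanned a wide range of levels. Mt1 was highest at 741 to 1621 FPKM over the 6 libraries, followed by Sgk1 (278 to 433), Mt2 (144 to 320) and Tsc22d3 (66.2 to 146). Nr3c1 (28.7 to 37.2) and Klf9 (20.8 to 26.5) were intermediate, and Fkbp5 (2.40 to 3.72), Zbtb16 (0.83 to 1.94) and Hif3a (0.03 to 0.34) were low. The ranges of neighbours in this order overlapped only between Sgk1 and Mt2 and between Mt2 and Tsc22d3.

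The genes with the most similar pattern over the 6 libraries were Naip2, Anxa3, Actn1, Prg4 and Yap1 for Fkbp5 (Pearson r of log2 CPM from 0.968 to 0.987). For the mean of Mt1 and Mt2 they were Hspe1, Phactr4, Myct1, Ppdpf and Smim4 (r from 0.997 to 0.999). They are the extremes among 13454 genes compared over 6 points, of which 59 exceeded r = 0.9 with Fkbp5 and 721 with the metallothioneins. The points share library, depth and tissue composition, so these values are a description only.

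Lists of pathway genes around the members held 0 genes called by edgeR. Of 14 genes for the receptor and its chaperones (Nr3c1 and Fkbp5 included), 4 were higher and 10 lower in SRF, with a median log2 fold change of -0.09 beside 0.00 over all tested genes. Hspa8, a constitutive heat shock chaperone, had an unadjusted p-value under 0.05 in edgeR, at 2453 ± 202 CPM in control mice (SD, n = 3) and 2031 ± 96.2 CPM in SRF mice (log2 fold change -0.27). The 15 coregulators had a median of -0.08. The 7 tested genes of steroid metabolism had a median of -0.12, and neither list had a gene below an unadjusted p-value of 0.05 in edgeR. Hsd11b1, which regenerates active glucocorticoid in tissues, was at 9.89 ± 1.75 CPM in control mice against 7.05 ± 1.78 CPM in SRF mice (SD, n = 3), with overlapping groups.

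Of 43 tested genes in a list of other glucocorticoid targets, 22 were higher and 21 lower in SRF (median 0.03). In edgeR 6 were higher and 2 lower at an unadjusted p-value under 0.05, against 4.16% higher and 2.85% lower over all tested genes, and 0 passed after adjustment. DESeq2 called 1 of the 43, Cebpb, a factor of inflammation and of macrophage and fat cell differentiation. Cebpb was at 10.0, 17.4 and 14.5 CPM in control mice 1, 2 and 3 and at 40.2, 42.4 and 23.0 CPM in SRF mice 1, 2 and 3. All SRF mice were above all controls, with a log2 fold change of 1.33 (SE 0.29, adjusted p = 0.311 from edgeR and 0.00448 from DESeq2). Cdkn1a, the cell cycle inhibitor p21, had a log2 fold change of 0.77 and Litaf, an endosomal protein linked to inflammatory signalling, of 0.48, while Fam107a, an actin-binding protein, had -0.55 (adjusted p from 0.386 to 0.422 in edgeR with Benjamini-Hochberg adjustment). Of the 13 macrophage markers 12 were higher in SRF (8 at an unadjusted p-value under 0.05 in edgeR, 5 called by DESeq2), and their part in the values of Cebpb and Litaf was not tested.

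**Figure D4:**
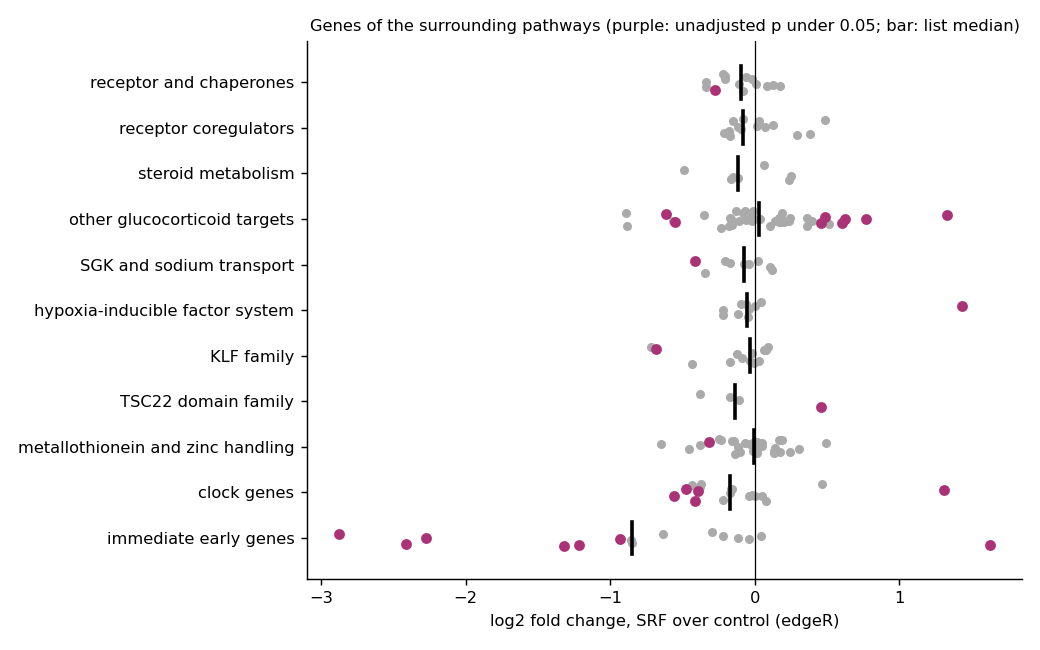
Log2 fold change of SRF over control for each tested gene of 11 lists around the members, with the list median as a black bar and genes at an unadjusted p-value under 0.05 (edgeR) in purple. The medians of 10 lists lie between -0.17 and 0.03, and that of the immediate early genes lies at -0.85 (-0.44 without control mouse 2).

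Of the relatives and partners of single members, Cited2 had the largest log2 fold change. Cited2, a coactivator-binding competitor of the hypoxia-inducible factors, was at 45.8, 22.7 and 23.4 CPM in control mice 1, 2 and 3 and at 87.5, 74.0 and 86.5 CPM in SRF mice 1, 2 and 3. The groups did not overlap, with a log2 fold change of 1.44 (SE 0.29, adjusted p = 0.280 from edgeR), and its adjusted p was 0.000125 from DESeq2. The other 9 tested genes of the hypoxia-inducible factor list had log2 fold changes between -0.22 and 0.04. In the KLF family 4 of 13 tested genes were higher and 9 lower (median -0.03). Klf2, a flow-responsive endothelial factor, was at 128 ± 33.8 CPM in control mice against 80.1 ± 5.07 CPM in SRF mice (SD, n = 3), with a log2 fold change of -0.68 and an adjusted p of 0.441 in edgeR with Benjamini-Hochberg adjustment. In the TSC22 family 1 of 4 genes was higher and 3 lower (median -0.14). Tsc22d4, a paralog of Tsc22d3, had the opposite sign to it, with a log2 fold change of 0.46 against -0.38, and its adjusted p was 0.559 in edgeR. Of 9 tested genes of SGK kinases and sodium transport 3 were higher and 6 lower (median -0.07). Sgk3, a kinase related to Sgk1, had a log2 fold change of -0.41, close to the -0.34 of Sgk1.

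Among 29 tested genes of metallothioneins and zinc or copper handling (Mt1 and Mt2 included), 14 were higher and 15 lower (median -0.01). Mt3, the metallothionein of neurons and glia, was at 126, 135 and 87.0 CPM in control mice 1, 2 and 3 and at 99.1, 74.5 and 48.7 CPM in SRF mice 1, 2 and 3. It was lowest in mouse 3 of each group, as Mt1 and Mt2 were, with a log2 fold change of -0.65 (SE 0.28, adjusted p = 0.734 from edgeR with Benjamini-Hochberg adjustment). Mtf1, which encodes the metal-responsive factor MTF-1, was at 20.4 ± 1.95 CPM in control mice against 20.7 ± 3.17 CPM in SRF mice (SD, n = 3). Slc30a1, the zinc exporter induced by the same factor, was at 8.70 ± 1.06 and 8.30 ± 1.81 CPM (SD, n = 3). Mtf2, a Polycomb-associated gene, was the 1 gene of this list below an unadjusted p-value of 0.05 in edgeR (log2 fold change -0.32).

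The clock and immediate early genes, several of which also respond to glucocorticoids, included genes with larger fold changes than the members. Of 18 clock genes 13 were lower and 5 higher in SRF (median -0.17, and -0.083 without SRF mouse 1). At an unadjusted p-value under 0.05 in edgeR 4 were lower and 1 higher, against 2.85% lower and 4.16% higher over all tested genes. The higher one was Npas2, a relative of Clock, which had the largest fold change of the list (log2 1.31, SE 0.48, adjusted p = 0.604 from edgeR). It was at 1.12, 2.17 and 0.751 CPM in control mice 1, 2 and 3 and at 3.41, 3.84 and 2.74 CPM in SRF mice 1, 2 and 3, without overlap. Only SRF mice 1 and 2 brought Npas2 over the count criterion. Its sign and lack of overlap are therefore not independent of that criterion. Per3 was at 102 ± 4.10 CPM in control mice against 76.2 ± 4.09 CPM in SRF mice (SD, n = 3), with a log2 fold change of -0.41. Ciart and Per2, further clock repressors, had log2 fold changes of -0.48 and -0.55, and all 3 had an adjusted p between 0.374 and 0.413 in edgeR with Benjamini-Hochberg adjustment. Per1, the clock gene most directly induced by glucocorticoids, was at 37.7 ± 12.2 CPM in control mice against 33.7 ± 6.12 CPM in SRF mice, with overlapping groups. Of 15 tested immediate early genes 13 were lower (median -0.85, and -0.44 without control mouse 2). In edgeR 6 were lower and 1 higher at an unadjusted p-value under 0.05, against the same 2.85% and 4.16% over all tested genes. DESeq2 called 3 lower (Nr4a1, Arc and Egr3) and 1 higher (Jund), against 0.334% lower and 0.803% higher over all tested genes. The study's own quantitative PCR, in more mice, did not bear out the higher Jund, and the lower Nr4a1 there fell short of significance. Nr4a1, an orphan nuclear receptor, was at 78.8, 364 and 290 CPM in control mice 1, 2 and 3 and at 27.9, 23.4 and 48.8 CPM in SRF mice 1, 2 and 3. The groups did not overlap, and the retina-rich libraries were the lowest control and the highest SRF library. The hour at which tissue was taken is not given in the sources used here.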

How the data were processed

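RNA-seq of RPE-choroid was analysed in 6 libraries (3 control, 3 SRF mice, grouped by the labels). The authors deposited gene counts and FPKM values for each library, and the labels name StringTie and DESeq2. The aligner, genome build and strandedness are not given in the sources used here. Of 15663 gene IDs, 15659 matched GENCODE M21 (GRCm38), which was used for positions.

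Counts were tested in R 4.3.3 with edgeR 4.0.16 (TMM normalization, quasi-likelihood test) over the 13454 genes that exceeded 50 counts in 2 or more libraries. A call needed a Benjamini-Hochberg adjusted p under 0.05 with a log2 change of 0.5 or more. DESeq2 1.42.0 and limma 3.58.1 (log2 of FPKM plus 0.1 or 1) were alternatives. The fits were tested on simulated data. Exact permutation tests were two-sided.

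Named genes were the 9 members, up to 4 genes per list with the smallest p, and the 5 genes most like Fkbp5 and most like the mean of Mt1 and Mt2. Mtf1, Slc30a1, Per1 and Hsd11b1 were named for their known roles after their values were seen. Members and lists were chosen with earlier results of these data known.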

Additional observations from a re-analysis of the deposited data

How the results depend on the processing

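No member was called under any of the 18 alternatives, and Sgk1, Tsc22d3 and Hif3a were lower in SRF in each alternative run for them. The number of called genes over the whole table was 0 in edgeR, 153 with DESeq2, 153 without both retina-rich libraries, 1 with upper-quartile normalization, with the newer edgeR dispersion method, without a count filter, with edgeR's own filter and with the photoreceptor level as a covariate, and 2 with limma at either pseudocount. Leaving out each mouse gave 0 to 5 called genes, the 5 without control mouse 1. Zbtb16 (0.05) became -0.15 and -0.078 with limma at pseudocounts of 0.1 and 1 and -0.035 with the photoreceptor covariate. Nr3c1 (-0.06) became 0.12 with limma at either pseudocount. Without both retina-rich libraries Mt1 became 0.053, Mt2 0.26 and the hypoxia-inducible factor median -0.21 (-0.05 with all libraries). The coregulator median (-0.080) became 0.061 and 0.059 with limma at pseudocounts of 0.1 and 1. The cause of these changes was not tested.

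With each mouse left out in turn, log2 fold changes ran from -0.13 to 0.31 for Zbtb16, -0.51 to 0.016 for Mt1, -0.35 to 0.18 for Mt2, -0.13 to 0.031 for Nr3c1, -0.028 to 0.30 for Fkbp5, -0.0084 to 0.16 for Klf9, -0.59 to -0.11 for Tsc22d3, -0.48 to -0.22 for Sgk1 and -2.71 to -1.11 for Hif3a. Tsc22d3 and Sgk1 were nearest to 0 without control mouse 3. Nr3c1 was above 0 without control mouse 3 (0.031) or SRF mouse 3 (0.0081). The median of the glucocorticoid members ran from -0.12 to 0.084 (-0.12 without SRF mouse 2) and that of the hypoxia-inducible factor list from -0.14 to 0.047 (0.047 without control mouse 3). The clock median ran from -0.24 to -0.083 and the immediate early median from -1.08 to -0.44, which was -0.46 with limma at a pseudocount of 1 and -1.05 without both retina-rich libraries. The medians of the other glucocorticoid targets and of the KLF, SGK, zinc handling and coregulator lists changed sign under at least 1 alternative.

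The labels do not say whether a shared replicate number pairs a control mouse with an SRF mouse. Correlations of log2 CPM minus the group mean of each gene, between the libraries that share a number, were -0.48, 0.49 and -0.30 for replicates 1, 2 and 3. They cannot decide this, because their signs differ and the retina-rich libraries bear different numbers in control and SRF. With the replicate number as a block, 0 genes were called, as without it, and Sgk1 had a log2 fold change of -0.33, Tsc22d3 -0.35, Mt1 -0.30 and Mt2 -0.15. The difference of the log2 Mt1 to Mt2 ratio under the block was -0.15 (exact paired permutation test, p = 0.25, the smallest that 3 pairs allow). Depth limits Hif3a most, with 3 to 43 counts per library.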
